A study of Triticum aestivum with 96 samples.

Results

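In cold-treated wheat crowns, 3 probesets of the Affymetrix Wheat GeneChip that stand for enzymes splitting sucrose or fructan were followed through the cold. They are Ta.9000.1.S1_at (described as beta-fructosidase), Ta.26928.1.S1_a_at (fructan exohydrolase) and Ta.11120.1.S1_a_at (apoplastic invertase). They were picked by name, and the 3 are among 61179 probesets other than controls, of which 31543 passed a limit on brightness and were tested. All 3 members passed that limit, a log2 signal of 5.15 in the brightest group. The study had listed all of them on these same samples for effects of duration and genotype and for a course that differed between lines. The F tests and the tests between days and between lines below are thus no independent evidence. The study had also listed beta-fructosidase for a large fold change in winter Norstar over these durations. The size and p-value of its fall in that line are thus no independent evidence either.

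The study compared 4 lines of hexaploid wheat at 3-leaf stage. Winter Norstar is a cold-hardy winter cultivar with the vrn-A1 allele, and spring Norstar is a line in the Norstar background that carries Vrn-A1 of Manitou. Winter Manitou carries vrn-A1 of Norstar in the Manitou background, and spring Manitou is the spring cultivar with Vrn-A1. The derived lines came from repeated backcrosses with selection by growth habit, so they differ from their parent by a region around Vrn-A1 whose extent is not resolved here, and not by that gene alone. Crowns, which hold the shoot apex at the base of the plant, came from untreated plants (0 days) and from plants kept at 6 °C for 2 or 14 days, for 21 or 35 days, for 42 or 56 days, or for 70 days, all lines in the same long days. Untreated crowns were taken at 0 days only, so days in the cold and plant age cannot be told apart. The growth protocol of the study also gives a lower light level at 6 °C than before the transfer. Every line had 3 arrays per duration, 96 arrays in 32 groups. Each array had the RNA of a pool of crowns, so the arrays show the spread between pools and not between plants. One text among the labels lists 28 days where the duration field of the samples gives 21 days, and 21 days was used.

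Fructans are chains of fructose built on sucrose, and winter cereals store them in the crown in autumn. Fructosyltransferases lengthen the chain, and fructan exohydrolases remove fructose from its end. Invertases split sucrose to glucose and fructose, the apoplastic ones in the cell wall space, where they act on sucrose that arrives from other tissues. Beta-fructosidase is a broader name for enzymes that release fructose from such sugars, invertases included, and the description does not say which kind Ta.9000.1.S1_at is. Apoplastic invertases and fructan exohydrolases of plants belong to the same family of proteins, and wheat holds copies of each gene in its several subgenomes. A probeset can read more than 1 copy, and the suffix of the fructan exohydrolase and apoplastic invertase probesets (_a_at) marks probes shared by alternative transcripts of the same gene.

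The Vrn-A1 probeset, for the vernalization gene that the lines were bred to differ in, averaged 5.42 in winter Norstar and 5.22 in winter Manitou at 0 days, against 9.49 in spring Norstar and 9.66 in spring Manitou. COR14b, a chloroplast protein induced by cold, averaged 9.62 to 11.06 after 2 days, against 3.70 to 4.10 at 0 days. Transcripts of green tissue were present in every group: 14 probesets for light-harvesting and photosystem proteins had a mean of 9.37 to 10.98. No list of crown or meristem markers was held. Arrays of a group correlated at 0.971 or more across probesets, and 63 of the 96 arrays were most like an array of their own group, the others most like one of another group. At 0 days, arrays with the same replicate number deviated together across the lines (mean r = 0.545, range 0.321 to 0.752 over 18 pairs). Without the replicate 2 arrays of 0 days every first response below was still called, with differences of -4.56 to -5.46 for beta-fructosidase, 1.83 to 2.52 for fructan exohydrolase and 1.51 to 2.36 for apoplastic invertase.

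The duration of cold took most of the variation of all 3 probesets. It was 84.5% for beta-fructosidase, 83.3% for fructan exohydrolase and 53.9% for apoplastic invertase. The line took 7.66%, 8.58% and 32% in the same order of probesets, the interaction of line and duration 5.29%, 6.59% and 8.64%, and the residual between arrays 2.58%, 1.49% and 5.5%. All 3 passed the moderated F test of limma for duration, for genotype and for their interaction (adjusted p under 0.01). Among all probesets tested, 89.2% passed for duration, 54.4% for genotype and 16.9% for the interaction. The interaction had F = 6.58 for beta-fructosidase (adjusted p = 6.1e-08), F = 13.2 for fructan exohydrolase (adjusted p = 9e-14) and F = 5.04 for apoplastic invertase (adjusted p = 4.7e-06, and 0.053 when replicate 1 was left out of every group).

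**Figure D1:**
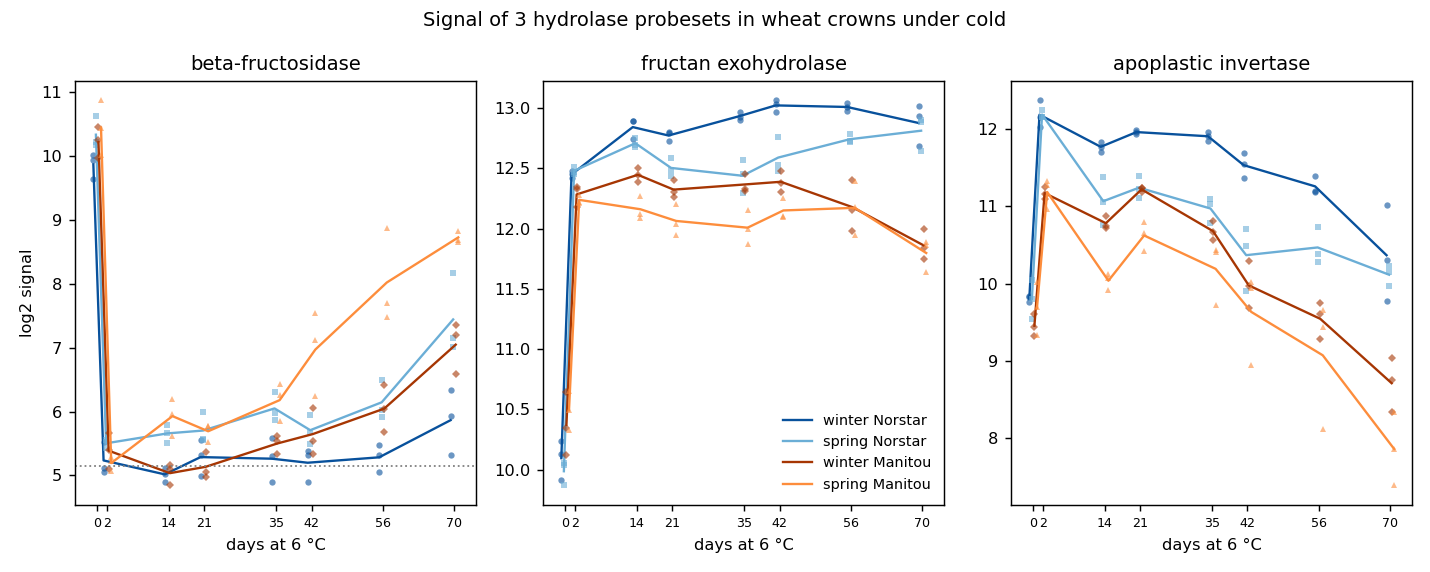
Log2 signal (vertical axes, which differ in range) of the 3 probesets against days at 6 °C in 4 lines, with a point for each array and lines through the group means of 3 arrays, points shifted sideways a little by line. The dotted line in the beta-fructosidase panel is the brightness limit of 5.15, which the signal came close to at 2 days in every line, while the other probesets were higher at 2 days than at 0 days.

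Within 2 days of cold, beta-fructosidase fell in all 4 lines while fructan exohydrolase and apoplastic invertase rose in all 4. A change is called here when the adjusted p of limma is under 0.01 and the difference is at least 2-fold. Beta-fructosidase fell 24.9-fold to 38.2-fold, to a level near the brightness limit. Fructan exohydrolase rose by 3.36-fold to 5.63-fold and apoplastic invertase by 2.83-fold to 5.25-fold, with the smaller folds in the Manitou lines.

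Beta-fructosidase in winter Norstar had log2 signals of 5.06, 5.12 and 5.53 at 2 days, against 9.65, 10.03 and 9.94 at 0 days. In spring Norstar it had 5.53, 5.55 and 5.42 at 2 days, against 10.22, 10.17 and 10.62 at 0 days. Every array at 2 days lay far below every array at 0 days in these lines. In winter Manitou the signals were 5.40, 5.67 and 5.09 at 2 days, against 10.25, 10.45 and 9.97 at 0 days. In spring Manitou they were 5.28, 5.22 and 5.07 at 2 days, against 10.88, 10.03 and 10.44 at 0 days. No array of 2 days overlapped with those of 0 days in any line. The differences were -4.64 in winter Norstar (24.9-fold lower, adjusted p = 6.5e-24), -4.84 in spring Norstar (28.5-fold lower, adjusted p = 6.6e-25), -4.84 in winter Manitou (28.6-fold lower, adjusted p = 8e-25) and -5.25 in spring Manitou (38.2-fold lower, adjusted p = 1.5e-26), each with an SE of 0.263. Of all probesets tested, 2.91% fell in winter Norstar and 2.84% in spring Norstar, beside 3.61% in winter Manitou and 3.35% in spring Manitou. Of its 96 arrays, 15 were under the brightness limit, all of them in the cold, and 3 of its group means were under it, so that small differences at this level are read off a signal close to the dimmest tested.

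Fructan exohydrolase in winter Norstar had log2 signals of 12.45, 12.48 and 12.42 at 2 days, against 9.92, 10.13 and 10.24 at 0 days. In spring Norstar the signals were 12.45, 12.51 and 12.47 at 2 days, against 9.87, 10.04 and 10.05 at 0 days. With SDs of 0.029 and 0.0322 at 2 days in these lines, the rise was far larger than the spread. In winter Manitou they were 12.18, 12.32 and 12.35 at 2 days, against 10.12, 10.65 and 10.34 at 0 days. In spring Manitou they were 12.21, 12.28 and 12.22 at 2 days, against 10.33, 10.65 and 10.49 at 0 days. The Manitou means were above the Norstar means at 0 days and below them at 2 days, and in no line did the days overlap. The rise was 2.35 in winter Norstar (5.12-fold, adjusted p = 3.6e-30), 2.49 in spring Norstar (5.63-fold, adjusted p = 1.1e-31), 1.91 in winter Manitou (3.76-fold, adjusted p = 9.6e-26) and 1.75 in spring Manitou (3.36-fold, adjusted p = 1.1e-23), each with an SE of 0.0994. Probesets that rose made up 2.03% of those tested in winter Norstar and 2.42% in spring Norstar, beside 2.76% in winter Manitou and 2.46% in spring Manitou.

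Apoplastic invertase in winter Norstar had log2 signals of 12.16, 12.37 and 12.02 at 2 days, against 9.82, 9.76 and 9.83 at 0 days. In spring Norstar it had 12.15, 12.25 and 12.16 at 2 days, against 10.04, 9.54 and 9.81 at 0 days. Both Norstar lines thus had a mean of 12.19 at 2 days. In winter Manitou the signals were 11.10, 11.25 and 11.17 at 2 days, against 9.60, 9.44 and 9.32 at 0 days. In spring Manitou they were 11.32, 11.27 and 10.96 at 2 days, against 10.01, 9.70 and 9.34 at 0 days. All Manitou arrays at 2 days were under all Norstar arrays of that day. The rise was 2.38 in winter Norstar (5.21-fold, adjusted p = 5.7e-13), 2.39 in spring Norstar (5.25-fold, adjusted p = 4e-13), 1.72 in winter Manitou (3.29-fold, adjusted p = 1.1e-08) and 1.50 in spring Manitou (2.83-fold, adjusted p = 3.5e-07), each with an SE of 0.239.

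**Figure D2:**
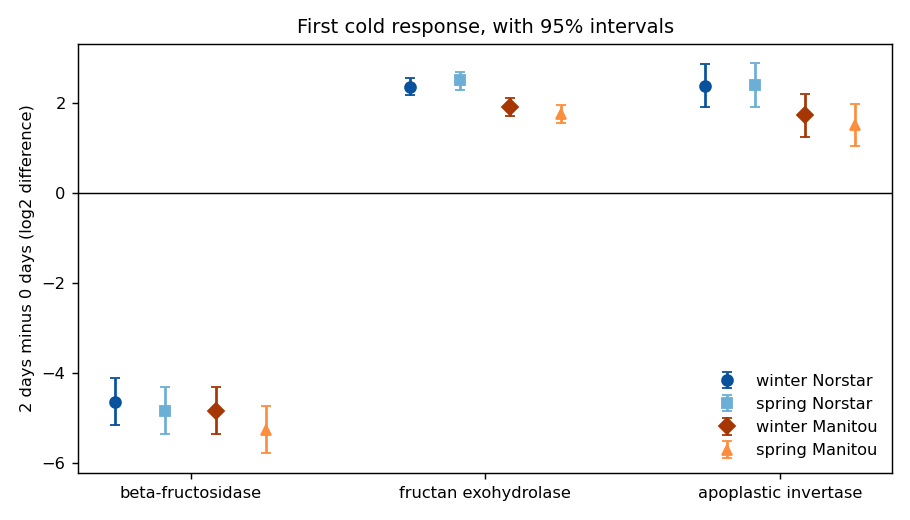
Difference in log2 signal between 2 days and 0 days of cold (vertical axis) for each probeset in 4 lines, with 95% confidence intervals from the model over all arrays. Beta-fructosidase lies between -4.64 and -5.25 in the 4 lines, and the other probesets lie above 0, higher in the Norstar lines than in the Manitou lines.

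Whether the first response itself differed between lines was tested as a difference of differences, at an adjusted p under 0.01 and any size. Fructan exohydrolase in spring Norstar rose by 0.75 more on the log2 scale than in spring Manitou (95% interval 0.465 to 1.03, adjusted p = 0.00076), and 0.327% of all probesets tested passed this comparison. With 2 of the 3 replicate numbers the difference was 0.69 to 0.77 and no longer passed (adjusted p 0.022 to 0.095). It is part of the interaction for which the study had listed this probeset on these samples, so it is no independent evidence. Between the winter lines, Norstar minus Manitou, the difference for fructan exohydrolase was 0.44 (0.163 to 0.724, adjusted p = 0.18), where 0.285% of probesets passed. For apoplastic invertase the differences were 0.89 between the spring lines (0.214 to 1.56, adjusted p = 0.34) and 0.66 between the winter lines (-0.0123 to 1.34, adjusted p = 0.63), and neither passed. The differences between winter and spring lines of a background passed for none of the 3 probesets: they ran from -0.14 to 0.20 in Norstar and from 0.17 to 0.42 in Manitou. Very few of all probesets did so, 0.00317% in Norstar and 0.00634% in Manitou. For beta-fructosidase the intervals reached 0.937 in Norstar and 1.16 in Manitou, so a difference of nearly 2-fold between habits in its fall is within them.

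After 2 days the 3 probesets parted. Fructan exohydrolase was still above its level of 0 days at the end in every line, apoplastic invertase came down again, and beta-fructosidase stayed low for weeks and then rose in 3 lines, to its highest late level in spring Manitou.

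Beta-fructosidase in spring Manitou had means of 5.19 at 2 days, 5.93 at 14, 5.69 at 21, 6.18 at 35, 6.97 at 42, 8.02 at 56 and 8.73 at 70 days. In winter Norstar the means over the same days were 5.23, 5.02, 5.29, 5.26, 5.20, 5.28 and 5.87. The cultivars, with 9.87 in winter Norstar and 10.45 in spring Manitou at 0 days, were thus far apart by the end. Spring Norstar had 5.50, 5.66, 5.70, 6.05, 5.71, 6.15 and 7.44 over these days, and winter Manitou 5.39, 5.04, 5.13, 5.50, 5.65, 6.05 and 7.05. Both derived lines had their largest step between 56 and 70 days and lay between the cultivars at the end.

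Between 2 and 42 days beta-fructosidase was called in spring Manitou and in no other line. It had 6.25, 7.54 and 7.12 there at 42 days, against 5.28, 5.22 and 5.07 at 2 days. The difference was 1.78 (3.43-fold, SE 0.263, adjusted p = 7.2e-08). In the other lines it was -0.04 in winter Norstar (95% interval -0.56 to 0.488), 0.21 in spring Norstar (-0.319 to 0.73) and 0.26 in winter Manitou (-0.264 to 0.785), and whether the lines differed in this step was not tested on its own. Of all probesets tested, 4.65% were called in winter Norstar and 5.44% in spring Norstar for this step, with 3.26% in winter Manitou and 4.59% in spring Manitou, in either direction. At 70 days the arrays had 5.93, 6.34 and 5.33 in winter Norstar, 7.16, 8.16 and 7.01 in spring Norstar, 7.20, 6.59 and 7.35 in winter Manitou, and 8.84, 8.65 and 8.69 in spring Manitou. The spring Manitou arrays were above all others and the winter Norstar arrays below all others. From 42 to 70 days the rise was 1.73 in spring Norstar (adjusted p = 2.4e-07), 1.40 in winter Manitou (adjusted p = 3.4e-05) and 1.76 in spring Manitou (adjusted p = 1.9e-07), and in winter Norstar the difference was 0.67 (0.143 to 1.19, adjusted p = 0.088). The background of this step was 1.46% in winter Norstar and 3.73% in spring Norstar, with 2.71% in winter Manitou and 3.86% in spring Manitou. The rise in winter Manitou was 1.10 and did not pass without replicate 3 (adjusted p = 0.018).

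At 70 days beta-fructosidase was still lower than in untreated crowns in every line. The difference to 0 days was -4.01 in winter Norstar (16.1-fold lower, adjusted p = 5.9e-21), -2.89 in spring Norstar (7.44-fold, adjusted p = 3e-15), -3.17 in winter Manitou (9.03-fold, adjusted p = 1.9e-16) and -1.72 in spring Manitou (3.29-fold, adjusted p = 6.9e-08). Of all probesets tested, 6.36% in winter Norstar and 11.2% in spring Norstar, with 7.58% in winter Manitou and 11.2% in spring Manitou, were called between 70 and 0 days.

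Fructan exohydrolase in winter Norstar had its highest level well after the first response, with means of 12.45 at 2 days, 12.84 at 14, 12.77 at 21, 12.93 at 35, 13.02 at 42, 13.01 at 56 and 12.88 at 70 days. Spring Norstar had 12.48, 12.71, 12.50, 12.44, 12.59, 12.74 and 12.81 over the same days. The SD within these groups was 0.173 or less, and at 35 and 42 days all arrays of winter Norstar were above those of spring Norstar. Winter Manitou had 12.28, 12.45, 12.32, 12.37, 12.39, 12.18 and 11.86, and spring Manitou 12.24, 12.16, 12.06, 12.01, 12.15, 12.17 and 11.80.

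No step between 2 and 42 or between 42 and 70 days of fructan exohydrolase reached 2-fold. The largest further increase was a difference of 0.57 between 2 and 42 days in winter Norstar (1.49-fold, adjusted p = 2.6e-06). Between 42 and 70 days the difference was -0.53 in winter Manitou (adjusted p = 3.6e-05) and -0.35 in spring Manitou (adjusted p = 0.0033), against -0.15 in winter Norstar (adjusted p = 0.4) and 0.22 in spring Norstar (adjusted p = 0.064). At 70 days the signals were 12.93, 12.68 and 13.01 in winter Norstar and 12.89, 12.65 and 12.90 in spring Norstar. They were 11.99, 11.84 and 11.75 in winter Manitou and 11.89, 11.64 and 11.86 in spring Manitou. The backgrounds did not overlap, and all of these arrays were above all arrays of 0 days. Against 0 days the level was 2.78 higher in winter Norstar (6.88-fold, adjusted p = 2.9e-35), 2.83 in spring Norstar (7.09-fold, adjusted p = 8.8e-36), 1.49 in winter Manitou (2.81-fold, adjusted p = 1.4e-20) and 1.31 in spring Manitou (2.47-fold, adjusted p = 1.6e-18).

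Apoplastic invertase in winter Norstar came down late, with means of 12.19 at 2 days, 11.77 at 14, 11.96 at 21, 11.91 at 35, 11.53 at 42, 11.26 at 56 and 10.37 at 70 days. Spring Norstar had 12.19, 11.07, 11.24, 10.97, 10.37, 10.47 and 10.11 over these days. At 14 days its arrays had 11.06, 10.76 and 11.37, all below those of 2 days. Winter Manitou had 11.17, 10.78, 11.22, 10.68, 9.98, 9.54 and 8.71, and spring Manitou 11.19, 10.04, 10.62, 10.19, 9.63, 9.07 and 7.86. In all 4 lines the mean at 21 days was above that at 14 days.

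Between 2 and 42 days apoplastic invertase fell by 1.82 in spring Norstar (3.53-fold, adjusted p = 2.7e-09), by 1.20 in winter Manitou (2.29-fold, adjusted p = 5.1e-05) and by 1.55 in spring Manitou (2.93-fold, adjusted p = 2e-07). In winter Norstar the difference was -0.65 (95% interval -1.13 to -0.176, adjusted p = 0.023). At 70 days the signals were 10.30, 9.77 and 11.02 in winter Norstar, 10.15, 9.97 and 10.22 in spring Norstar, 9.04, 8.75 and 8.34 in winter Manitou, and 8.33, 7.39 and 7.85 in spring Manitou. The Norstar lines overlapped with each other, and every Manitou array was below every Norstar array. From 42 to 70 days the fall was 1.17 in winter Norstar (adjusted p = 0.00028), 1.27 in winter Manitou (adjusted p = 3.8e-05) and 1.78 in spring Manitou (adjusted p = 1.4e-08), with a difference of -0.25 in spring Norstar (-0.73 to 0.225, adjusted p = 0.42). The value for winter Norstar rests on its replicate 2 array at 70 days, the lowest of the 3: without it the difference was -0.87 (adjusted p = 0.025) and was not called. With replicate 1 left out of every group the call in winter Norstar was lost too (-1.06, adjusted p = 0.087), and with replicate 3 left out that in winter Manitou (-1.09, adjusted p = 0.011).

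Set against untreated crowns, apoplastic invertase at 70 days was 1.83 lower in spring Manitou (3.55-fold, adjusted p = 1e-09). In winter Manitou it was 0.74 lower, under 2-fold (adjusted p = 0.0086). In the Norstar lines no difference to 0 days was called. It was 0.56 in winter Norstar (0.0833 to 1.04, adjusted p = 0.057), with an interval above 0, and 0.32 in spring Norstar (-0.16 to 0.795, adjusted p = 0.26). The spread between arrays was largest late in spring Manitou, where the replicate 2 array had the lowest invertase signal at each of 35, 42, 56 and 70 days, with 8.11 at 56 days beside 9.44 and 9.66.

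The winter lines were then set against the spring lines of the same background, which differ at the region around Vrn-A1. At 0 days none of the 3 probesets was called, and 0.0824% of all probesets were in Norstar and 0.0349% in Manitou. Beta-fructosidase at 0 days averaged 9.87 in winter Norstar, against 10.34 in spring Norstar, with all 3 winter arrays under all 3 spring arrays (difference -0.46, 95% interval -0.989 to 0.06, adjusted p = 1), and in Manitou the arrays overlapped. Over 14 to 42 days beta-fructosidase was lower, and the other probesets were higher, in the winter line of each background.

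**Figure D3:**
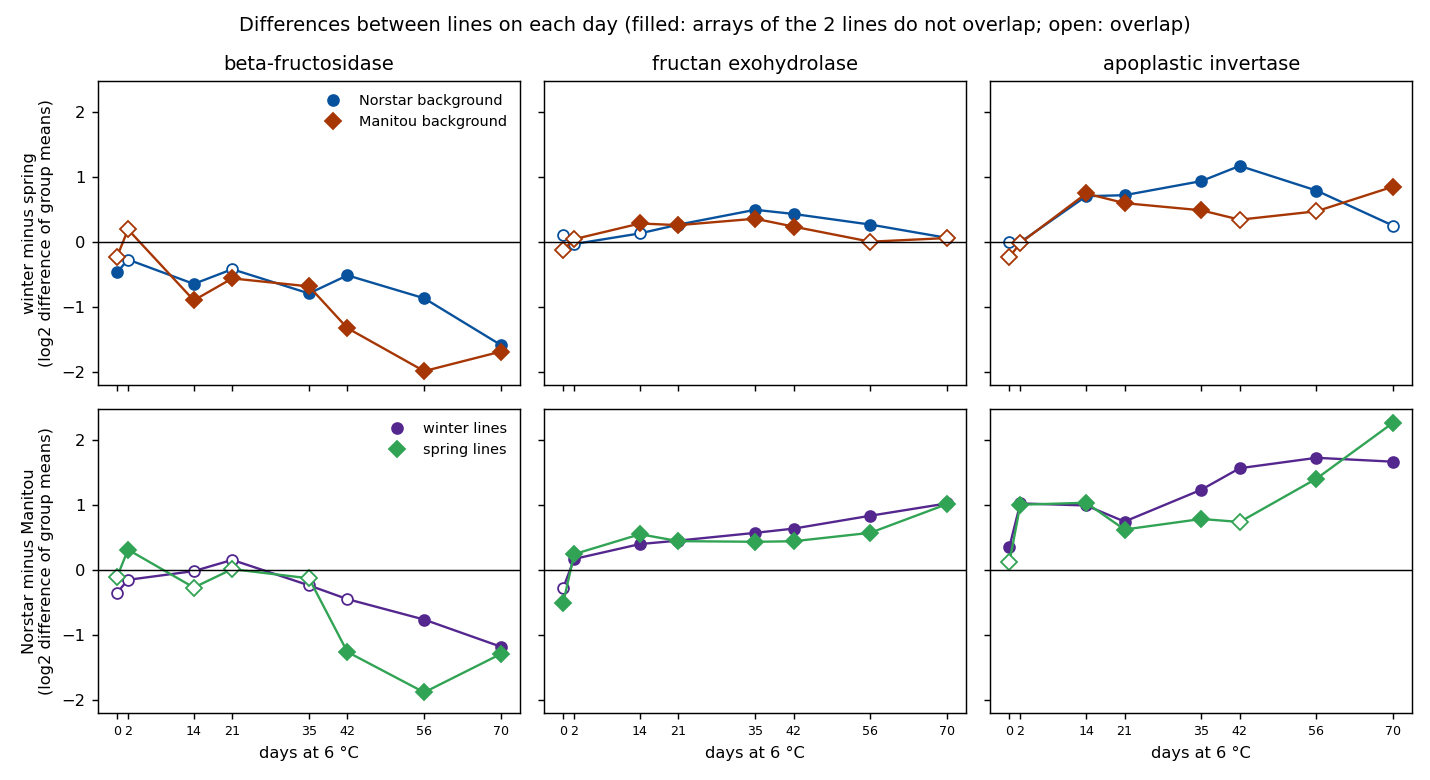
Difference of group means in log2 signal (vertical axes) on each day at 6 °C, winter minus spring line in each background in the upper row and Norstar minus Manitou within each habit in the lower row. Filled symbols mark days on which the 3 arrays of one line were all above or all below those of the other, and open symbols days of overlap. In the upper row all 3 probesets overlap at 2 days and are apart at 35 days, and in the lower row fructan exohydrolase and apoplastic invertase are apart by 2 days.

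The mean over 14, 21, 35 and 42 days of beta-fructosidase was 5.19 in winter Norstar, against 5.78 in spring Norstar, and 5.33 in winter Manitou, against 6.19 in spring Manitou. The difference was -0.59 in Norstar (SE 0.131, adjusted p = 0.00026) and -0.86 in Manitou (SE 0.131, adjusted p = 6e-07). Over 56 and 70 days the means were 5.57 in winter Norstar, against 6.79 in spring Norstar, and 6.55 in winter Manitou, against 8.38 in spring Manitou. The difference was then -1.22 in Norstar (2.33-fold, adjusted p = 2.6e-07) and -1.83 in Manitou (3.55-fold, adjusted p = 4e-12). Winter and spring arrays did not overlap, winter below spring, on 5 of the 7 cold days in Norstar and on 6 in Manitou. How many of all probesets were apart on as many days was not counted.

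For these comparisons 19.1% of all probesets tested passed over 14 to 42 days in Norstar and 8.6% in Manitou, and 19.3% over 56 and 70 days in Norstar and 12.6% in Manitou. All 3 probesets passed over 14 to 42 days in both backgrounds, but the study had listed them for differences between lines on these samples. Fructan exohydrolase averaged 12.89 in winter Norstar, against 12.56 in spring Norstar, a difference of 0.33 (SE 0.0497, adjusted p = 1e-07). It averaged 12.38 in winter Manitou, against 12.10 in spring Manitou, a difference of 0.29 (adjusted p = 1.1e-05). Over 56 and 70 days its differences were 0.17 in Norstar (adjusted p = 0.068) and 0.03 in Manitou (adjusted p = 0.77), neither past the threshold.

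Apoplastic invertase averaged 11.79 in winter Norstar over 14 to 42 days, against 10.91 in spring Norstar, a difference of 0.88 (SE 0.12, adjusted p = 8e-09). It averaged 10.66 in winter Manitou, against 10.12 in spring Manitou, a difference of 0.54 (adjusted p = 0.00051, and 0.035 without replicate 1). At 42 days the winter Norstar arrays had 11.69, 11.54 and 11.36, against 10.49, 9.91 and 10.71 in spring Norstar, with no overlap. Over 56 and 70 days the difference was 0.52 in Norstar (adjusted p = 0.014) and 0.66 in Manitou (adjusted p = 0.0024). The Manitou value no longer passed without any 1 of 4 arrays. It was 0.42 (adjusted p = 0.054) without the replicate 2 array of spring Manitou at 56 days and 0.54 (adjusted p = 0.021) without that of 70 days. Without the winter Manitou array of replicate 3 at 56 days it was 0.61 (adjusted p = 0.011), and without that of replicate 1 at 70 days 0.58 (adjusted p = 0.015). The Norstar value passed with arrays that share day and number taken as a random block (adjusted p = 0.0044), and also without any 1 of 4 arrays, such as 0.67 (adjusted p = 0.0019) without the replicate 2 array of winter Norstar at 70 days. Between backgrounds, Norstar minus Manitou, the winter minus spring differences over 14 to 42 days themselves differed by 0.28 for beta-fructosidase (-0.0958 to 0.646), 0.05 for fructan exohydrolase (-0.0934 to 0.187) and 0.34 for apoplastic invertase (0.000106 to 0.675). None was called (adjusted p 0.31 to 0.83), where 1.96% of all probesets were.

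Lines of the same habit share the Vrn-A1 allele and differ in the rest of the genome, and winter Norstar and spring Norstar enter these comparisons as well as those above. Over 14 to 42 days fructan exohydrolase and apoplastic invertase were higher in Norstar than in Manitou in both habits, where 32.6% of all probesets passed between the winter lines and 25.7% between the spring lines. Fructan exohydrolase was 0.51 higher between the winter lines (adjusted p = 3e-14) and 0.46 higher between the spring lines (adjusted p = 1.4e-12). Apoplastic invertase was 1.13 higher between the winter lines (2.19-fold, adjusted p = 8.7e-13) and 0.79 higher between the spring lines (1.73-fold, adjusted p = 7.8e-08). Norstar and Manitou arrays of fructan exohydrolase did not overlap on any of the 7 cold days in either habit. The share of all probesets that were apart on every cold day was not counted. By 70 days the difference of means of apoplastic invertase was 1.66 between the winter lines and 2.26 between the spring lines.

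At 0 days the order was another. Fructan exohydrolase in spring Norstar was 0.50 below spring Manitou (adjusted p = 5.7e-05), and in winter Norstar 0.28 below winter Manitou (adjusted p = 0.052). Without the replicate 1 array of winter Manitou the difference between the winter lines was -0.40 and passed (adjusted p = 0.0046). The difference of means between backgrounds thus had the opposite sign at 2 days, and the means were higher in Norstar on every cold day. Apoplastic invertase differed by 0.35 between the winter lines (adjusted p = 0.44) and 0.11 between the spring lines (adjusted p = 0.84) at 0 days. Of all probesets, 9.56% passed at 0 days between the winter lines and 10.5% between the spring lines.

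Beta-fructosidase was not called between the backgrounds at 0 days, and over 14 to 42 days the difference was -0.14 between the winter lines (-0.4 to 0.124, adjusted p = 0.43). Between the spring lines it was -0.41 (adjusted p = 0.0096), just past the threshold, and it no longer passed in 51 of the 96 fits that left out 1 array (highest adjusted p = 0.036). It was carried by 42 days, when spring Norstar had 5.68, 5.95 and 5.49, against 6.25, 7.54 and 7.12 in spring Manitou: over 14, 21 and 35 days alone it was -0.13 (adjusted p = 0.57).

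**Figure D4:**
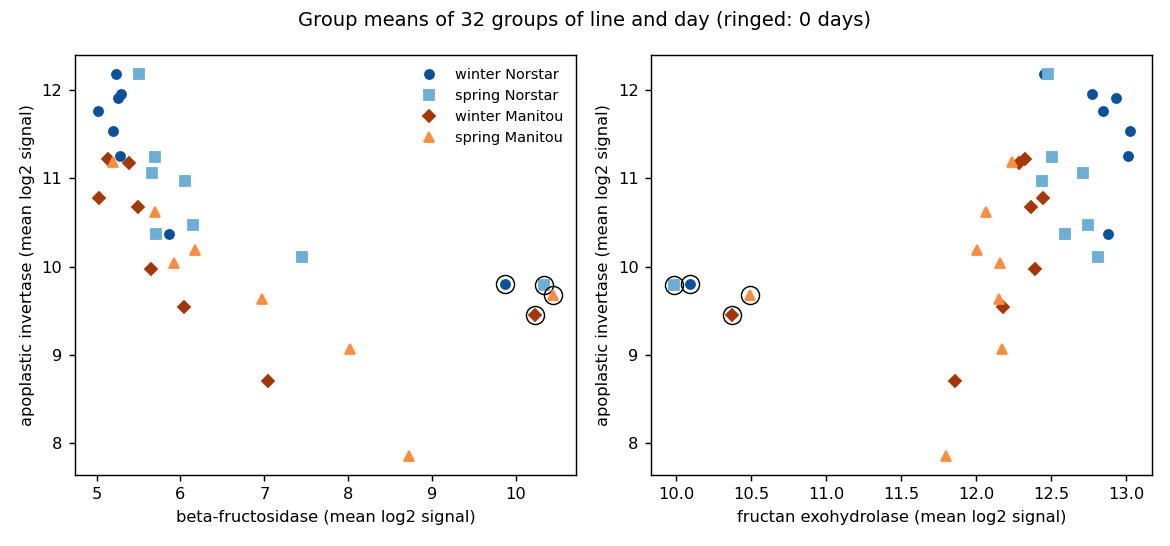
Mean log2 signal of apoplastic invertase (vertical axes) against that of beta-fructosidase on the left and of fructan exohydrolase on the right (horizontal axes), a point for each of 32 groups of 4 lines and 8 days, with 0 days ringed. In the cold, groups with more beta-fructosidase signal had less apoplastic invertase signal, and the untreated groups lie apart from them.

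Set against each other over the 32 group means, which share lines and days, beta-fructosidase and fructan exohydrolase had r = -0.883, beta-fructosidase and apoplastic invertase r = -0.678, and fructan exohydrolase and apoplastic invertase r = 0.523. Over the 28 means in the cold alone these were -0.496, -0.843 and 0.644. Much of the first value thus came from the step between 0 and 2 days, whereas beta-fructosidase and apoplastic invertase ran opposite to each other within the cold. Among arrays of the same group, after the group mean was taken off, the values were -0.3, -0.278 and 0.474 over 96 arrays.

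By the rule for likeness, the 3 probesets with the highest correlation of group means were named for each member. For apoplastic invertase the nearest was Ta.11120.2.S1_at (r = 0.978 over 32 group means), which has the same cluster number in its name and for which no description was held. Its means ran from 4.65 in spring Manitou at 70 days to 7.07 in spring Norstar at 2 days. It rose at 2 days by 1.29 in winter Norstar (adjusted p = 4.1e-10) and by 1.33 in spring Norstar (adjusted p = 1.4e-10), and was 0.65 higher in winter Manitou and 0.63 higher in spring Manitou, under 2-fold. Over 14 to 42 days it was 0.67 higher in winter Norstar than in winter Manitou (adjusted p = 3.7e-11) and 0.52 higher in spring Norstar than in spring Manitou (adjusted p = 9.1e-08). The next were TaAffx.97616.1.S1_at (r = 0.941) and Ta.12728.3.S1_a_at (r = 0.928).

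Fructan exohydrolase was most like Ta.13784.1.S1_at, described as BLT14.1 protein of the cold-induced BLT14 family (r = 0.969), Ta.1138.1.S1_at, described as a cold-responsive LEA/RAB-related COR protein (r = 0.964), and Ta.8037.1.A1_at (r = 0.963). Late embryogenesis abundant (LEA) proteins are known for their build-up in drying or cold-treated plant tissue. Beta-fructosidase was most like TaAffx.31542.1.S1_at and TaAffx.499.1.A1_at (each r = 0.967) and Ta.25647.1.A1_at (r = 0.966), with no description held for them. Ranked by Spearman's correlation, other probesets came first for beta-fructosidase and fructan exohydrolase, and Ta.11120.2.S1_at stayed first for apoplastic invertase (0.968).

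Other probesets of sugar metabolism were taken from 1742 descriptions, the first part of a list of the study. The study had listed them on these samples for differing between lines over time, so their counts are no independent evidence. Further probesets of the same enzymes may be missing from the lists below. Among all probesets tested, 2.03% to 2.76% were called higher and 2.84% to 3.61% lower at 2 days in the 4 lines, which stands beside each count of these lists. Of 3 probesets for sucrose:fructan 6-fructosyltransferase, which builds branched fructan on sucrose, 0 were called higher at 2 days in winter Norstar and 1 in spring Norstar, with 2 in each Manitou line, and 0 were lower in any line. The list's median difference was 0.92, 0.96, 1.05 and 1.12 in this order of lines, against 0.03, 0.02, 0.04 and 0.03 for all probesets tested. Ta.2789.1.S1_a_at had a mean of 12.88 at 2 days, against 11.96 at 0 days, in winter Norstar, and 13.08 at 2 days, against 11.83 at 0 days, in winter Manitou. It was bright in every group, from 11.56 in spring Manitou at 70 days to 13.30 in winter Norstar at 42 days, and so had its lowest value in the line and on the day where apoplastic invertase had its own.

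The list of hydrolases held 4 probesets, since the description of beta-fructosidase came from another list of the study. Its 2 members beside fructan exohydrolase and apoplastic invertase were called in no line at 2 days, and the list's median difference was 1.40 in winter Norstar and 1.54 in spring Norstar, beside 0.78 in winter Manitou and 0.85 in spring Manitou. Another fructan exohydrolase probeset, Ta.7151.1.S1_at, was dim, with means of 4.95 to 6.39, and differed at 2 days by 0.45 in winter Norstar (adjusted p = 0.13), 0.69 in spring Norstar (adjusted p = 0.017), -0.17 in winter Manitou (adjusted p = 0.61) and 0.21 in spring Manitou (adjusted p = 0.53). At 70 days it was 1.27 above 0 days in winter Norstar (adjusted p = 1e-05) and 1.06 above in spring Norstar (adjusted p = 0.00012), with differences of -0.52 in winter Manitou (adjusted p = 0.074) and -0.09 in spring Manitou (adjusted p = 0.78). The alkaline invertase probeset Ta.21092.1.S1_at, for an enzyme that splits sucrose inside the cell, differed by -0.04 to -0.35 at 2 days.

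Of 4 probesets for sucrose synthesis and cleavage, 2 were higher and 1 lower at 2 days in each Norstar line, 1 higher and 1 lower in winter Manitou, and 0 higher and 1 lower in spring Manitou (2.03% to 2.76% higher and 2.84% to 3.61% lower among all probesets). The sucrose synthase probeset Ta.11152.2.A1_a_at, for an enzyme that cleaves sucrose reversibly, rose by 2.14 in winter Norstar (adjusted p = 7.3e-17) and 2.20 in spring Norstar (adjusted p = 1.6e-17), beside 0.98 in winter Manitou and 0.91 in spring Manitou. Ta.11152.3.S1_at of the same cluster rose by 2.10 in winter Norstar and 2.07 in spring Norstar, by 1.12 in winter Manitou, and was 0.80 higher in spring Manitou. Ta.4274.1.S1_at, described as sucrose synthase 2, fell by 1.27 to 1.36 in the 4 lines. The list's median was 1.16 in winter Norstar and 1.27 in spring Norstar, beside 0.64 in winter Manitou and 0.49 in spring Manitou.

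Of 4 sugar transporter probesets 1 rose in every line and 0 fell, where 2.03% to 2.76% of all probesets rose. This was the hexose transporter probeset Ta.2669.1.S1_a_at, for a protein that takes up products of invertase, with a rise of 1.10 in winter Norstar and 1.28 in spring Norstar, and of 1.38 in winter Manitou and 1.25 in spring Manitou (adjusted p from 6.3e-25 to 3.3e-20). The list's median ran from 0.30 in spring Manitou to 0.71 in winter Norstar, against 0.02 to 0.04 over all probesets tested. Of 5 probesets for raffinose, trehalose and starch metabolism, 3 rose in winter Norstar, spring Norstar and winter Manitou and 2 in spring Manitou, with medians of 0.80 to 1.33. They were 2 galactinol synthases, which start the synthesis of raffinose, and a trehalose-6-phosphate synthase, Ta.6534.2.S1_at, which was called in all 4 lines, with the lowest difference, 1.31, in winter Norstar. Galactinol synthase Ta.30113.1.S1_at rose by 2.83 in winter Norstar, by 2.19 in spring Norstar and by 1.18 in winter Manitou, and was 0.81 higher in spring Manitou, and Ta.13008.1.S1_at rose by 1.06 to 2.41.

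Other transcripts moved with the members, and their part in these results was not tested. The list of 14 green tissue probesets averaged 9.92 in winter Norstar and 9.83 in spring Norstar at 2 days, against 10.96 and 10.76 at 0 days, and 9.79 in winter Manitou and 9.69 in spring Manitou at 2 days, against 10.98 and 10.87 at 0 days. Of the 14, 5 fell in winter Norstar and 4 in spring Norstar, while 8 fell in winter Manitou and 7 in spring Manitou, and 0 rose in any line, where 2.84% to 3.61% of all probesets fell. This list, too, was taken from the descriptions that the study had listed on these samples, so its counts are no independent evidence. The median difference over the list ran from -1.03 in winter Manitou to -0.77 in spring Norstar, against 0.02 to 0.04 over all probesets. In the cold the list mean ran from 9.37 to 10.45, with no line ending at its level of 0 days. Across the 32 group means the list had r = 0.704 with beta-fructosidase, -0.639 with fructan exohydrolase and -0.359 with apoplastic invertase. In crown RNA, a change in the share of green tissue and a change of transcript per cell cannot be told apart.

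SAG12, a cysteine protease known as a marker of senescing leaves, averaged 2.90 to 3.07 at 2 days, against 4.78 to 5.47 at 0 days, and reached 8.45 in winter Norstar and 10.68 in spring Norstar at 70 days, and 10.80 in winter Manitou and 10.91 in spring Manitou. At 42 days it averaged 3.24 in winter Norstar and 7.95 in spring Norstar, and 5.62 in winter Manitou and 8.32 in spring Manitou, with SDs of 0.165 to 2.10. It had r = -0.76 with apoplastic invertase, 0.386 with beta-fructosidase and -0.0519 with fructan exohydrolase over the group means. Its means from 2 to 35 days in every line were under the brightness limit of 5.15. So were those at 0 days in all lines but spring Manitou and at 42 days in winter Norstar. Its early fall, its value at 42 days in winter Norstar and part of these correlations thus rest on a dim signal. COR14b at 70 days averaged 9.19 in winter Norstar and 7.96 in spring Norstar, and 4.91 in winter Manitou and 4.90 in spring Manitou.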

How the data were processed

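Crown RNA of 4 lines at 8 durations of cold, 3 arrays per group, was hybridized to the Affymetrix Wheat GeneChip. The authors read the scans with the Affymetrix Microarray Suite and applied RMA, named in the submitters' processing notes, in GeneSpring, whose version is not given in the sources used here. RMA takes off background, brings arrays to shared quantiles and sums up probes, so the log2 values as deposited needed no scaling. Array medians lay between 5.67 and 5.79. Quantile normalization gives arrays like distributions, so a shift shared by most transcripts would not be seen, and signals near the floor understate a fold.

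Present calls were not used. Of 61290 probesets, 111 controls were left out, the brightest by highest group mean were kept as many as the study states as present, and probesets marked by their suffix (_x_at, _s_at) as prone to cross-hybridize were left out. In limma 3.58.1 (R 4.3.3, version 1.17.8 of data.table) each of the 32 groups had its own mean in 1 model, and p-values were adjusted by the Benjamini-Hochberg method over the 31543 probesets tested in each comparison, at 0.01. Differences along the days also had to reach 2-fold. Intervals are at 95%. The fit was tested on simulated data. Figures were drawn in Python 3.11.15 with matplotlib and pandas 2.3.3. Precision is limited by 3 arrays per group, with a median residual SD of 0.149.

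The members and lists were chosen with earlier results of these data known. Beside the members, the rule named up to 4 probesets per sugar list with the smallest adjusted p at 2 days among those called, the 3 with the most similar group means per member, and Vrn-A1, COR14b and SAG12; a few others of the lists are named as not called. The alternatives were other brightness limits, cross-hybridizing names kept, arrays shifted to equal medians, no moderation, array weights, blocks for the replicate number and for arrays sharing day and number, arrays left out, fits on the compared lines alone and 14 to 35 days as the middle days. Leaving out each of the 96 arrays was added after the data were seen. RefSeq named 1 member, the fructan exohydrolase (LOC778400), and probe sequences were not used here. The replicate numbers come from the labels, which name a random block design without saying what a number marks.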

Additional observations from a re-analysis of the deposited data

Results flagged for a closer look

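By a test of the difference itself, 3 results differed between lines over the whole course, and 1 at the first response. The course over the days differed between the 4 lines for beta-fructosidase (interaction F = 6.58), fructan exohydrolase (F = 13.2) and apoplastic invertase (F = 5.04), all of them probesets that the study had listed for this on these samples. The first response of fructan exohydrolase differed between spring Norstar and spring Manitou, by 0.75 in log2 signal (adjusted p = 0.00076, limma), with all 3 arrays of spring Norstar above those of spring Manitou at 2 days and all 3 below at 0 days. This difference is part of the interaction for which the study had listed the probeset. It no longer passed with any replicate number left out (adjusted p 0.022 to 0.095, limma).

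Groups of 3 arrays were too small for a search for stray arrays by this kind of check.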

How the results depend on the processing

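No called result of the members reversed its direction under any alternative. Over all comparisons of the members and all alternatives, 1304 values stayed on their side of the threshold, 5 passed newly and 20 no longer passed. The differences of 2 days and of 70 days to 0 days kept every call within each line. Apoplastic invertase, winter minus spring Norstar over 56 and 70 days, was 0.52 and did not pass with the settings of the report. It passed with the 20000 brightest probesets, with the replicate block (adjusted p = 0.0052) and with arrays that share day and number taken as a random block. It also passed with only the lines compared and without replicate 2 (adjusted p = 0.0015). With a replicate left out it was 0.46 to 0.61. In Manitou it was 0.66 and no longer passed with only the lines compared (adjusted p = 0.012). It was also lost without replicate 1 (0.77, adjusted p = 0.029) and without replicate 2 (0.36, adjusted p = 0.094), and ran from 0.36 to 0.85 with a replicate left out. Over 14 to 42 days in Manitou the range was 0.44 to 0.63. Beta-fructosidase in spring Norstar minus spring Manitou was -0.41 and no longer passed without a brightness limit, without moderation or with only the lines compared, was -0.13 with 14, 21 and 35 days only, and ran from -0.45 to -0.38 with a replicate left out. Its rise from 42 to 70 days in winter Manitou was 1.10 to 1.83 with a replicate left out. The fall of apoplastic invertase over these days was -0.96 in winter Manitou with array quality weights, under 2-fold, and -1.44 to -1.09 with a replicate left out, and -1.58 to -0.86 in winter Norstar. With a replicate left out, its interaction F was 2.61 to 6.53, and the first response of fructan exohydrolase differed between the spring lines by 0.69 to 0.77. Fits without a replicate had fewer arrays. For the other settings the cause was not tested.

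Same-numbered arrays of different groups had a mean r of 0.0472 in their deviations over all pairs (lowest -0.348). Within the same cold day it was 0.169 over 126 pairs (lowest -0.121), against -0.0842 for arrays with different numbers, and at 0 days 0.545 over 18 pairs, against -0.25. Since not every pair was above 0.1, the replicate number was not taken as a pairing. With the replicate block no other call on the members changed.

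The number of all probesets called moved by over 1.5 times in several comparisons, given here as the lowest and highest over the alternatives beside the reported count. For the interaction it was 1705 without replicate 1 and 13862 with array quality weights, against 5344. For the first response, Norstar minus Manitou, it was 16 to 228 in the winter lines, against 90, and 23 to 239 in the spring lines, against 103. For winter minus spring Manitou it was 1157 to 5311 over 14 to 42 days, against 2712, and 1547 to 6680 over 56 and 70 days, against 3982. For 42 to 70 days it was as low as 164 in winter Norstar, against 462, and was 503 to 2113 in spring Norstar, against 1177. With the 20000 brightest probesets it was 14460 for duration, against 28145, and 10141 for genotype, against 17175. Between the winter lines, Norstar minus Manitou, it was 1880 at 0 days, against 3014, and 6557 over 14 to 42 days, against 10270, and between the spring lines 2022, against 3306, and 4996, against 8110. For winter minus spring Norstar it was as low as 3878 over 14 to 42 days, against 6019, and 3085 over 56 and 70 days, against 6100. Winter minus spring at 0 days gave 10 to 50 in Norstar, against 26, and 4 to 17 in Manitou, against 11, and at the first response 0 to 3, against 1 in Norstar and 2 in Manitou. The difference between backgrounds of winter minus spring gave 182 to 1354, against 617. Precision is limited by 3 arrays per group and, for beta-fructosidase in the cold, by signals near the brightness limit.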
